A study of Rattus norvegicus with 18 samples.

Results

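The outer promoter of a gene is taken here as the stretch between 1000 and 3000 bases on either side of a transcript's start. In primary rat Schwann cells cultured with vitamin C, more peaks of 5-hydroxymethylcytosine (5hmC) rose than fell over this stretch, and the surplus of rises lay mostly on the downstream side of the start. The peaks described are the rows of the authors' peak list that carry the class label Promoter3k and the biotype protein_coding and that span less than 3000 bases from start to stop. There were 9202 of them among 215951 listed peaks. They belong to 6826 genes, with 4113 peaks centred upstream and 5089 centred downstream of the start. The cells were cultured to passage 3 with vitamin C (labelled VitC) or without it (labelled control), and carried no genetic change that the labels mention. DNA enriched for 5hmC by immunoprecipitation (hMeDIP, Active Motif kit), unenriched input DNA and ribosome-depleted RNA were each sequenced in 3 vitamin C and 3 control libraries. The labels do not tell whether the libraries of a group stem from different animals or cultures, so all p-values rest on a spread that may be technical.

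Methylated cytosine is oxidised to 5hmC by the TET dioxygenases, which use iron and 2-oxoglutarate and work better when ascorbate (vitamin C) keeps their iron reduced. 5hmC is both a step on the way to unmethylated cytosine and a lasting mark, and it is usually sparse at CpG-rich starts of active genes and more plentiful on the flanks and in the bodies of transcribed genes. Schwann cells are the myelinating glia of peripheral nerve, and in culture they need ascorbate to assemble a basal lamina and to myelinate axons.

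Few peaks of this class cover the whole promoter window around the start. The listed interval covered the window from 250 bases before to 50 bases after the start in 16 outer promoter peaks, of which 8 were called higher and 3 lower with vitamin C. Of the 13 with a proper gene symbol, 9 had a promoter in RefSeq's GRCr8 tables. The windows of 4 of them are shown because they run from CpG-poor to CpG-rich and include peaks that rose, fell and were not called. Each runs 5′ to 3′ along the gene's strand and capitals mark every CG. RefSeq may place the start at another transcript than the list does.
Cnfn, not called: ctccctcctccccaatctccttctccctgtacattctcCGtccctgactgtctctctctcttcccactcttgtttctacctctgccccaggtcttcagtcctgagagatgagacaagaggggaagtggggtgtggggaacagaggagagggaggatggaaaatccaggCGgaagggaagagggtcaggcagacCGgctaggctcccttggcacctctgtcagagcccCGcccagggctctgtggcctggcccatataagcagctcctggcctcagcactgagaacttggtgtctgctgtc
Jade2, higher: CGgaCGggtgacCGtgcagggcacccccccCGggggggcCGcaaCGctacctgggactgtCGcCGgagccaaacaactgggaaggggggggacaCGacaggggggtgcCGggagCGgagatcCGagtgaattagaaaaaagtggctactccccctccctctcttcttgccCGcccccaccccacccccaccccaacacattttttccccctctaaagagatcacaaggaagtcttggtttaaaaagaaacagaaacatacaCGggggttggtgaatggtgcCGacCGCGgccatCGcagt
Map3k20, higher: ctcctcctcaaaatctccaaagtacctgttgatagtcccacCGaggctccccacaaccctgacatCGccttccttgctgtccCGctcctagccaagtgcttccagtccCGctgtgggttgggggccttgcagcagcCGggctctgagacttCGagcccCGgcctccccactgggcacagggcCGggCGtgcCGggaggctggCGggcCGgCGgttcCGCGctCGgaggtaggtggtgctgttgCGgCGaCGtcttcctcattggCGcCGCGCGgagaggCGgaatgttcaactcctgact
Col8a2, lower: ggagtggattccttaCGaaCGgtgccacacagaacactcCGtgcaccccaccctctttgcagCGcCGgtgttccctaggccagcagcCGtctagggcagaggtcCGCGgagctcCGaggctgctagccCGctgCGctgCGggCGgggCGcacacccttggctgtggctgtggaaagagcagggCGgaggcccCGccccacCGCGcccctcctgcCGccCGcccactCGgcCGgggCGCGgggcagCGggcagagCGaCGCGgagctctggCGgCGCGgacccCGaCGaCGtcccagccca
These windows hold 4 CG in Cnfn, 18 in Jade2, 24 in Map3k20 and 34 in Col8a2, and the median over 24206 RefSeq rat promoters of the same length was 8. As shares of all those promoters, 71.0% had at least as many CG as Cnfn, 31.3% as many as Jade2, 20.4% as many as Map3k20 and 7.47% as many as Col8a2. The letters GGGCGG, read on both strands, were present in the windows of Cnfn, Jade2 and Col8a2, not in that of Map3k20, and in 35.9% of all promoters. The peak over Map3k20, a stress-activated kinase, had 14.4, 14.97 and 14.1 CPM with vitamin C, against 8.38, 10.48 and 9.02 CPM in control libraries, a log2 change of 0.66 ± 0.07. The peak over Jade2, a PHD-finger protein, had 14.7, 15.1 and 15.8 CPM with vitamin C, against 10.45, 9.31 and 10.2 CPM in control, a log2 change of 0.62 ± 0.07. The peak over Col8a2, a short-chain collagen, had 21.6, 23.5 and 21.9 CPM with vitamin C, against 26.1, 25.2 and 26.1 CPM in control. Its log2 change of -0.18 ± 0.06 was called in the main test, but the call was lost with library size alone as the scale and without the summed libraries of either group. Scaled by all counted reads the value was 0.28. Cnfn, a protein of the cornified envelope of skin, had 27.3, 26.8 and 25.8 CPM with vitamin C, against 26.1, 25.2 and 25.9 CPM in control, and its groups overlapped. Its log2 change of 0.06 ± 0.05 was not called, but it was 0.52 and called when scaled by all counted reads, and -0.22 and called when the second run was fitted alone.

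Reads in peaks numbered 24020306 to 39899445 per hMeDIP library and 7201638 to 9521037 per input library, and reads in genes 23381814 to 33173282 per RNA library. Replicates 1 and 3 of each hMeDIP group differed by no more than sampling noise over the peaks (chi-square per degree of freedom 0.896 with vitamin C and 0.963 in control, p = 1 for both), whereas the other hMeDIP pairs differed (1.08 to 1.47). They were therefore summed and counted as 1 sample, and hMeDIP was tested as 2 against 2. RNA replicate 1 with vitamin C stood apart from the other vitamin C libraries (29.3 and 41.0, against 5.27 to 9.09 for all other RNA pairs). The peak list runs through the chromosomes and then starts over, which makes 2 runs. The first run (rows before 68433) holds 31.7% of all peaks, and 87.1% of its peaks were called lower with vitamin C; in the second run 52.6% were called higher and 12.8% lower. No source used here says what the runs stand for, so the main hMeDIP counts and sums below are also given within them. Counts below for which no run is named are over both runs. The RNA held the Schwann cell markers at a summed 11567 to 12185 CPM with vitamin C and 11732 to 12134 CPM in control. Of the 8 with a symbol, 2 were called higher and 2 lower. Markers of pericytes and smooth muscle summed to 196 to 221 CPM with vitamin C and 77.1 to 80.9 CPM in control (3 of 4 tested higher; Rgs5, Notch3, Cnn1 and Acta2 under 1 CPM in every library). Fibroblast markers summed to 9268 to 10910 CPM with vitamin C and 4538 to 4688 CPM in control, with 1 of 4 tested higher, 3 lower and Dcn at 0. Perineurial markers summed to 438 to 457 CPM with vitamin C and 205 to 236 CPM in control, with 2 of 4 higher, 2 lower and Krt19 at 0. The sums of neuronal markers were 95.8 to 103 CPM with vitamin C and 78.6 to 91.4 CPM in control, of endothelial markers 3.09 to 4.34 CPM with vitamin C and 1.38 to 1.81 CPM in control (Cdh5 at 0), and of macrophage markers 1.39 to 1.76 CPM with vitamin C and 1.22 to 1.44 CPM in control. The part of other cell types in the 5hmC values was not tested, and fewer cells of a type cannot be told apart from less RNA or 5hmC per cell.

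All 9202 outer promoter peaks passed the filter on low counts. With vitamin C 4040 of them (43.9%) were called higher and 2654 (28.8%) lower by edgeR's quasi-likelihood test at a Benjamini-Hochberg adjusted p of 0.05. Over all listed peaks 36.9% were called higher and 36.3% lower. The total share called, 73.2% of all peaks, was thus near the same, and the outer promoter differed in its balance. The median log2 change was 0.17 in the outer promoter and 0.05 over all peaks. Single peaks ranged from a log2 change of -4.23 to 1.82. They were modest in size and height, with lengths of 268 to 2993 bases (median 682) and mean levels of 2.24 to 17.8 CPM per kb (median 4.99). The libraries of the groups did not overlap in 76.4% of outer promoter peaks, against 76.9% of all peaks. These counts are relative to the bulk of peaks. Scaling by all counted reads in place of reads in peaks moved the median of all peaks by 0.42, and then 6208 outer promoter peaks were higher and 1576 lower, against 60.1% higher and 23.6% lower of all peaks. DESeq2 called 4611 outer promoter peaks, with 25.8% of all 9202 higher and 24.3% lower, against 52.1% of all peaks (20.2% higher and 31.8% lower).

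Which run of the list a peak came from separated the directions. Of 2314 outer promoter peaks in the first run 3.63% were higher and 84.2% lower, against 2.89% and 87.1% of all peaks in that run. Of 6888 in the second run 57.4% were higher and 10.2% lower, against 52.6% and 12.8%. The first run held 25.1% of outer promoter peaks and 31.7% of all peaks. In both runs the outer promoter thus had a larger share of rises and a smaller share of falls than its run as a whole. The run and the direction of change cannot be told apart in a count over both.

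The downstream side of the start carried the surplus of rises. Downstream peaks were higher in 2540 cases (49.9%) and lower in 1216 (23.9%), with a median log2 change of 0.26. Upstream peaks were higher in 1500 cases (36.5%) and lower in 1438 (35.0%), with a median of 0.06, which is near the shares of all peaks. The upstream balance depended on the scaling. With DESeq2 814 upstream peaks were higher and 1223 lower, and downstream 1559 were higher and 1015 lower, while by all counted reads the upstream counts were 2513 and 891 and the downstream counts 3695 and 685. In the second run alone 51.4% of upstream peaks and 61.7% of downstream peaks were higher, with medians of 0.28 and 0.40. In the first run 2.47% of upstream and 5.00% of downstream peaks were higher, with medians of -0.96 and -0.90. When each run was scaled and fitted alone, 25.4% of upstream and 35.7% of downstream peaks of the second run were higher, and 29.3% and 21.3% lower. In the first run fitted alone 29.2% of upstream and 36.2% of downstream peaks were higher, and 7.58% and 7.82% lower. The background of these fits was 27.0% higher and 29.2% lower in the second run, and 26.7% and 8.65% in the first.

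**Figure D1:**
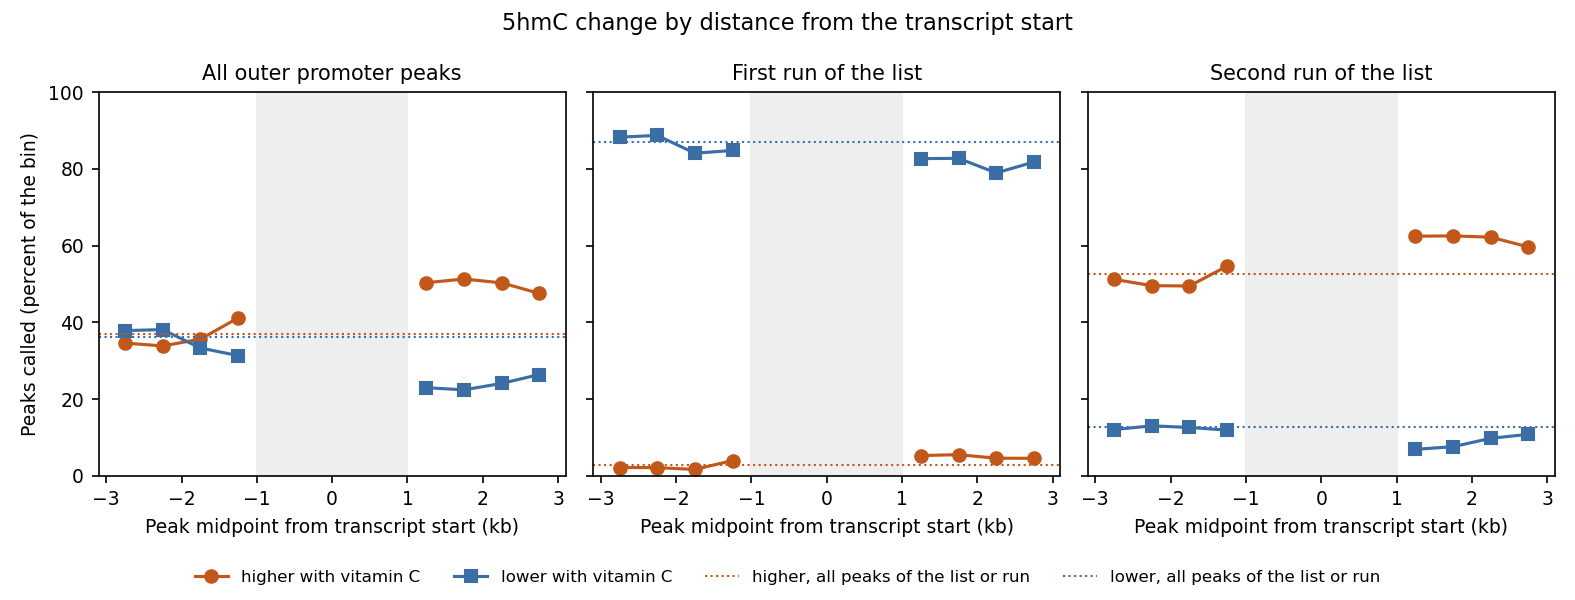
Share of outer promoter peaks called higher (circles) or lower (squares) with vitamin C, in percent of the peaks of each 500-base bin of distance from the transcript start, for all peaks and for each run of the list; dotted lines give the shares over all peaks of the list or run, and the grey band holds no outer promoter peaks. The share of rises was 33.8% to 41.1% in upstream bins and 47.5% to 51.3% in downstream bins.

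The step between the sides was seen at every distance. In the bins of 500 bases, 34.6%, 33.8%, 35.6% and 41.1% of upstream peaks were higher from the outermost to the innermost. Downstream the shares were 50.3%, 51.3%, 50.3% and 47.5% from the innermost outwards. The lowest downstream bin thus lay above the highest upstream bin.

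The same shift was seen in the summed reads of each library. The log2 ratio of upstream to downstream hMeDIP reads was -0.44 ± 0.000168 with vitamin C and -0.26 ± 0.0093 in control (SD, n = 2), a difference of -0.18. Single libraries lay between -0.45 and -0.44 with vitamin C and between -0.27 and -0.26 in control, so the groups did not overlap. The exact permutation test gave p = 0.333, the smallest that 2 against 2 allows. In the first run the log2 ratio was 0.06 ± 0.0063 with vitamin C and 0.17 ± 0.017 in control, and in the second run -0.56 ± 0.0039 and -0.44 ± 0.0036. Input DNA had log2 ratios of -0.41 ± 0.0049 with vitamin C and -0.41 ± 0.0082 in control (SD, n = 3; exact two-sided permutation p = 0.6), so the DNA itself showed no such shift beyond its spread. With vitamin C the outer promoter held 4.24 ± 0.0122% of hMeDIP reads in peaks, and in control 3.96 ± 0.0029% (exact p = 0.333). The upstream side held 1.80 ± 0.0053% with vitamin C and 1.80 ± 0.0077% in control, with overlapping libraries (exact p = 0.667), and the downstream side held 2.44 ± 0.0069% and 2.16 ± 0.0047%, without overlap. Input libraries held 4.34 ± 0.0137% of their reads in peaks there with vitamin C and 4.36 ± 0.0124% in control (exact p = 0.2). As a multiple of the input share, the outer promoter stood at 0.977 ± 0.0022 with vitamin C and 0.907 ± 0.0023 in control (SD, n = 2; exact p = 0.333).

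**Figure D2:**
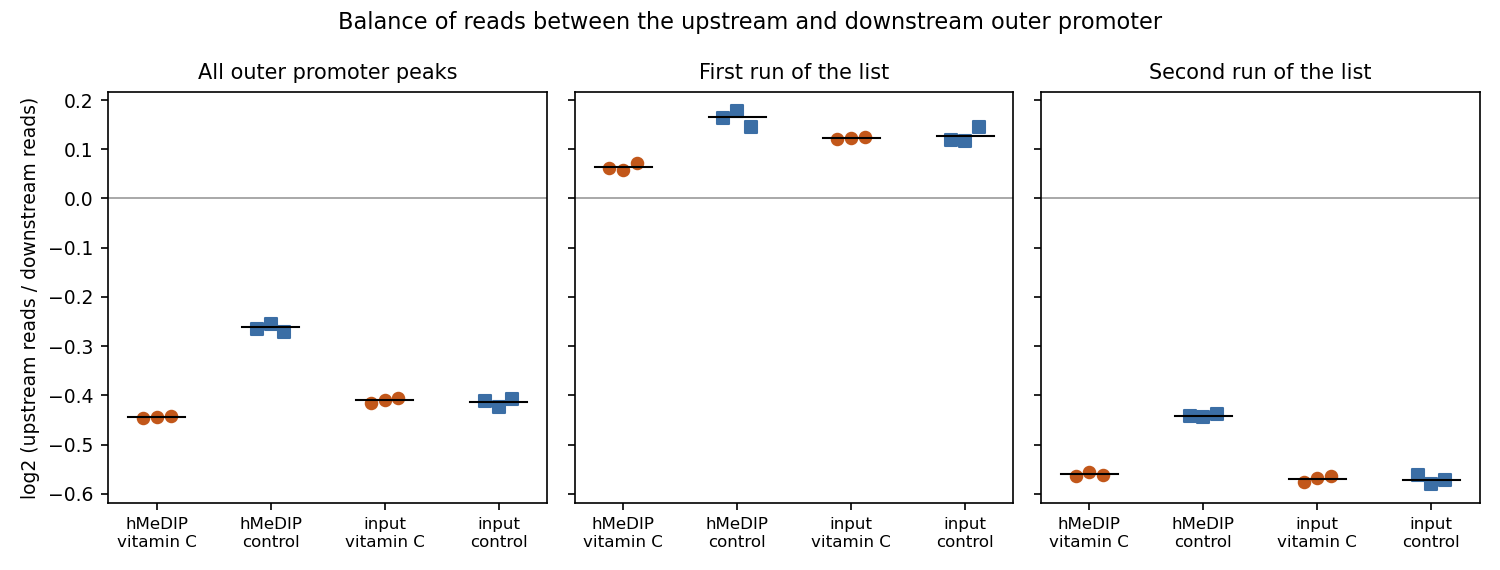
Log2 ratio of reads in upstream outer promoter peaks to reads in downstream ones, 1 point per library with lines at the group means, for hMeDIP and input with vitamin C and in control, over all peaks and within each run of the list. The hMeDIP ratio is lower with vitamin C in each panel (-0.44 against -0.26 over all peaks), while the input points of the groups overlap.

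Genes with peaks on both sides allow the sides to be set against each other within a gene, though not always at 1 start. There were 1274 such genes, with a median log2 change of 0.14 upstream and 0.28 downstream, and the downstream mean lay above the upstream mean in 740 of them. Among 865 genes with both sides in the second run this held for 493, and among 82 with both sides in the first run for 46. In all, 1833 genes had 2 or more outer promoter peaks, and 463 genes had at least 1 peak called higher and 1 called lower. The densest were Optn, an autophagy receptor, with 9 peaks (6 higher, 2 lower, median log2 change 0.32), the polarity kinase Mark3 with 8 (5 higher, 0 lower, median 0.34) and Rab3gap2, a subunit of the Rab3 GTPase activator, with 7 (6 higher, 0 lower, median 0.66). The list assigns these peaks to 5, 4 and 2 transcripts of those genes, so 1 gene can have several starts.

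The nearest classes of protein-coding peaks under 3000 bases show how far the pattern belongs to the outer promoter. Peaks of the class Promoter1k, closer to the start, were higher in 44.7% and lower in 30.6% of 3235 cases, and those of the class ProximalPromoter in 48.6% and 22.7% of 856. Gene body peaks were higher in 44.5% and lower in 28.4%, so the totals of the outer promoter resemble those of the gene body. In Promoter1k 43.7% of upstream and 45.9% of downstream peaks were higher, and 29.9% and 31.4% lower. Over both runs that gap between the sides was narrower than in the outer promoter. In the second run 57.7% of upstream and 63.0% of downstream Promoter1k peaks were higher, against 51.4% and 61.7% in the outer promoter. In the first run the shares were 3.30% and 2.40% in Promoter1k, against 2.47% and 5.00%. The difference between the classes was not tested. Of 21 chromosomes 20 had more outer promoter peaks higher than lower. The exception was X, where 20.8% of 106 peaks were higher and 63.2% lower. The first run of the list held 56.6% of the X peaks, and in the second run alone 47.8% of them were higher and 15.2% lower.

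Input DNA at the same peaks gave 0 calls among the 9201 outer promoter peaks tested (0.0% of all peaks) with edgeR and also 0 with DESeq2. An unadjusted p under 0.05 was seen in 4.73% of outer promoter peaks and in 4.86% of all peaks. Set against input in 1 fit, hMeDIP enrichment was higher with vitamin C in 25.4% of outer promoter peaks and lower in 21.1%, against 20.0% and 27.8% of all peaks. In the first run 1.60% of outer promoter peaks were higher over input and 70.1% lower, against 1.14% and 74.9% of all its peaks. In the second run the shares were 33.4% and 4.62%, against 28.7% and 6.02%. Over both runs 19.8% of upstream peaks were higher and 25.9% lower, and of downstream peaks 29.9% and 17.2%. Without the summed libraries of the control group that count fell to 2676 calls (1234 higher and 1442 lower), against 4278 (2338 and 1940) with all libraries.

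The 8 rises of smallest p reached 1.92 to 2.58-fold. Of these 8, 7 lay downstream of the start, and all were in the second run of the list. Of all 4040 rises 2540 lay downstream and 3956 were in the second run. The peak 1686 bases downstream of the start of Fgf5, a growth factor made by Schwann cells after injury, at chr14:12992714-12995082 (2368 bases), had 18.3, 16.2 and 15.7 CPM with vitamin C, against 6.65, 6.67 and 6.18 CPM in control libraries. Its log2 change was 1.37 ± 0.07 (SE; edgeR, adjusted p = 7.81e-20), with every vitamin C library above every control library. Its input level did not move in the same way, at 11.8 to 12.4 CPM with vitamin C and 11.4 to 11.9 CPM in control. Positions are those of the list, and no source used here names its genome build. Sqle encodes squalene epoxidase of cholesterol synthesis, and its peak 2564 bases downstream (chr7:99611031-99612480) had 10.1, 9.60 and 9.30 CPM with vitamin C, against 3.87, 3.46 and 4.37 CPM in control. Its log2 change was 1.30 ± 0.09 (edgeR, adjusted p = 1.02e-15), and enrichment over input moved by 1.505 ± 0.18.

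The other rises of this group were of the same order; the choice of these 8 asked for groups without overlap. The peak of the cell-surface protocadherin Pcdh17 (1437 bases downstream) had 10.6, 10.1 and 9.98 CPM with vitamin C, against 4.59, 4.37 and 4.43 CPM in control, a log2 change of 1.20 ± 0.09. The peak of Adamtsl1, a secreted ADAMTS-like protein without protease activity (2773 bases downstream), had 11.3, 11.5 and 11.9 CPM with vitamin C, against 4.47, 4.98 and 5.78 CPM in control, a log2 change of 1.19 ± 0.08. The peak of Rac1, a small GTPase of the actin cytoskeleton that mouse Schwann cells need to sort axons (1261 bases downstream), had 10.96, 11.7 and 11.8 CPM with vitamin C, against 5.26, 4.85 and 5.50 CPM in control, a log2 change of 1.15 ± 0.08. Vitamin C levels of these 3 lay between 9.98 and 11.9 CPM and control levels between 4.37 and 5.78 CPM. The peak of Gap43, a growth-associated protein of axons and immature Schwann cells (2153 bases downstream), had 17.0, 19.5 and 17.9 CPM with vitamin C, against 9.51, 9.09 and 9.08 CPM in control, a log2 change of 1.0005 ± 0.07. The peak of Txnip, which binds and inhibits thioredoxin (2137 bases downstream), had 19.0, 20.1 and 21.2 CPM with vitamin C, against 10.8, 9.87 and 10.4 CPM in control, a log2 change of 0.98 ± 0.07. Prag1, a pseudokinase linked to the actin cytoskeleton, had the only upstream peak of the 8 (1397 bases), with 17.4, 17.9 and 16.6 CPM with vitamin C, against 9.44, 8.53 and 9.27 CPM in control and a log2 change of 0.94 ± 0.07. These 8 calls held under every alternative tried.

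**Figure D3:**
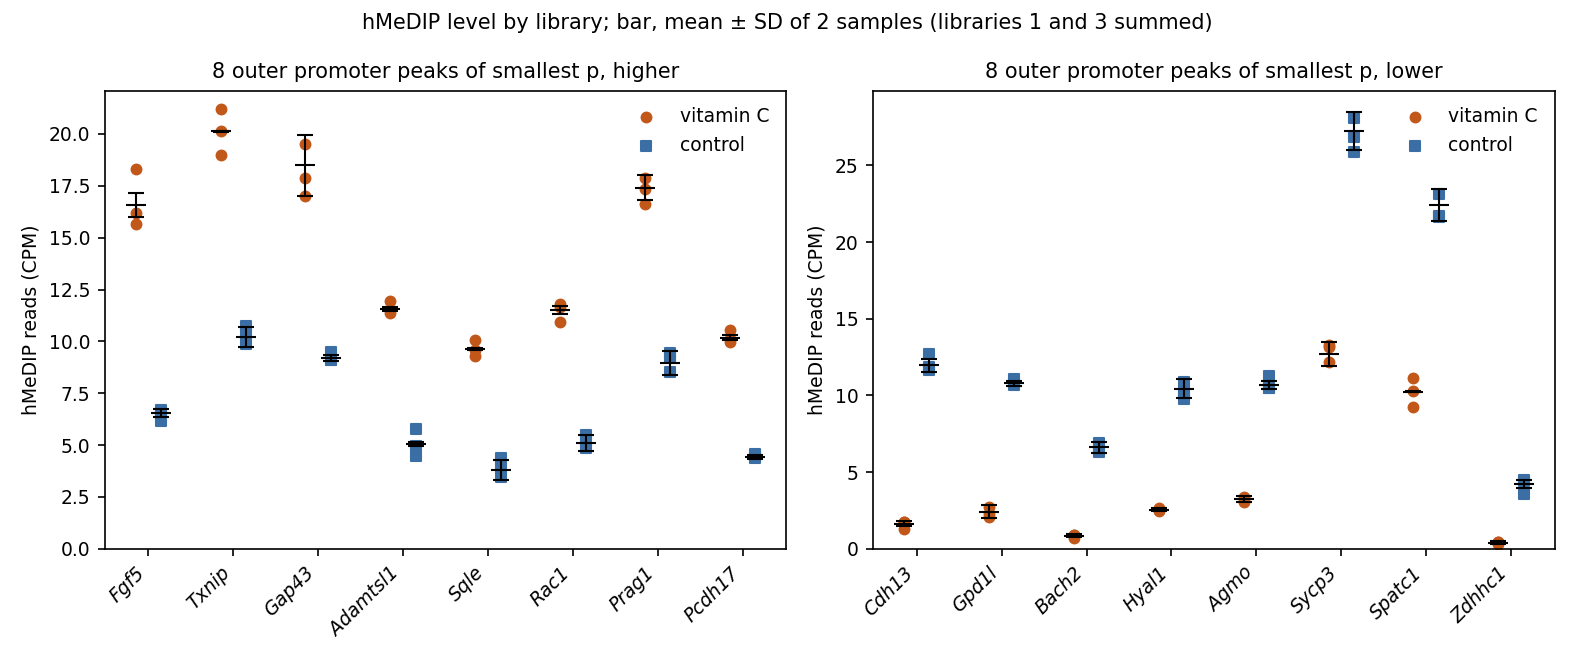
hMeDIP level (CPM of reads in peaks) in each library, vitamin C circles left of control squares, for the 8 outer promoter peaks of smallest p that were higher and the 8 that were lower with vitamin C; bars give the mean ± SD of 2 samples, libraries 1 and 3 being summed. Peaks were chosen to have groups without overlap, and of those shown Zdhhc1, Bach2 and Cdh13 fall furthest with vitamin C.

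The 8 falls of smallest p included changes steeper than any of these rises. Most of these 8 falls lay downstream of the start too, beside 1216 of all 2654 falls. The peak 2446 bases downstream of the start of Cdh13 (T-cadherin, an adhesion molecule anchored by a lipid), at chr19:51319509-51320234, had 1.31, 1.74 and 1.78 CPM with vitamin C, against 11.8, 11.6 and 12.7 CPM in control libraries. Its log2 change was -2.88 ± 0.11 (edgeR, adjusted p = 2.55e-25), while its input level was 4.25 to 4.33 CPM with vitamin C and 3.51 to 5.01 CPM in control. The peak of Bach2, a transcriptional repressor known from lymphocytes (1601 bases downstream, chr5:47547207-47548024), had 0.918, 0.920 and 0.682 CPM with vitamin C, against 6.43, 6.89 and 6.33 CPM in control. Its log2 change was -2.95 ± 0.14 (edgeR, adjusted p = 2.94e-21). The peak of the palmitoyltransferase Zdhhc1 (1903 bases downstream, chr19:37442483-37442916) had 0.473, 0.323 and 0.438 CPM with vitamin C, against 3.57, 4.42 and 4.46 CPM in control, a log2 change of -3.34 ± 0.19. These 3 peaks were thus near the bottom of the range with vitamin C and well filled in control.

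The next falls were 3.28 to 4.57-fold. The peak of Gpd1l, a glycerol-3-phosphate dehydrogenase relative (2790 bases downstream), had 2.25, 2.71 and 2.04 CPM with vitamin C, against 10.8, 10.7 and 11.04 CPM in control, a log2 change of -2.19 ± 0.10. The peak of Hyal1, a lysosomal hyaluronidase (1024 bases upstream), had 2.50, 2.64 and 2.46 CPM with vitamin C, against 10.2, 10.9 and 9.76 CPM in control, a log2 change of -2.003 ± 0.10. The peak of Agmo, which cleaves ether lipids (1081 bases downstream), had 3.23, 3.41 and 3.04 CPM with vitamin C, against 11.2, 10.48 and 10.46 CPM in control, a log2 change of -1.71 ± 0.09. The last falls of the 8 belonged to genes of the germ line whose RNA was at most 0.208 CPM in any library. The peak of Sycp3, of the synaptonemal complex (2279 bases downstream), had 13.2, 12.2 and 13.3 CPM with vitamin C, against 26.8, 28.1 and 25.8 CPM in control, a log2 change of -1.06 ± 0.06. The peak of Spatc1, a sperm centriole protein (2057 bases upstream), had 9.26, 10.3 and 11.1 CPM with vitamin C, against 21.7, 23.1 and 21.7 CPM in control, a log2 change of -1.10 ± 0.06. Spatc1 was the only one of the 8 in the second run of the list. The fall of Sycp3 was close to the median of its run (-0.99) and lost its call when that run was fitted alone; scaled by all counted reads it was -0.63, and that of Spatc1 -0.66. The other 7 kept their calls under every alternative tried.

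Cdh13 shows how far peaks of 1 promoter can part, here along the runs of the list. The downstream fall of Cdh13 lay in the first run and both of its upstream peaks in the second. Its upstream peak 2862 bases from the start rose, with 3.62, 2.31 and 2.65 CPM with vitamin C, against 1.65, 1.39 and 1.16 CPM in control, a log2 change of 1.03 ± 0.17 (edgeR, adjusted p = 8.76e-07). The peak 1301 bases upstream had 2.34, 2.34 and 2.09 CPM with vitamin C, against 2.56, 2.51 and 2.39 CPM in control, a log2 change of -0.12 ± 0.15 (edgeR, adjusted p = 0.457). The 3 outer promoter peaks of this gene thus included 1 rise, 1 fall and 1 without a call, which was -0.41 and called when the second run was fitted alone and 0.30 when scaled by all counted reads. With each run fitted alone the fall stood at -1.90 and the rise at 0.76, both called. Cdh13 RNA was 336 ± 116 CPM with vitamin C and 126 ± 5.96 CPM in control (SD, n = 3), a log2 change of 1.401 ± 0.20.

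The highest outer promoter levels per kb showed falls or no call. The peak of Numa1, a spindle pole protein (1662 bases downstream), had 15.3, 16.0 and 15.5 CPM with vitamin C, against 26.1, 25.8 and 26.1 CPM in control, a log2 change of -0.72 ± 0.06, which lost its call when scaled by all counted reads. The peak of Pigf, an enzyme of GPI anchor synthesis (1982 bases downstream), had 7.93, 7.26 and 6.89 CPM with vitamin C, against 12.6, 12.3 and 12.6 CPM in control, a log2 change of -0.76 ± 0.07 that was -0.31 when scaled by all counted reads. The peak of the calcium-binding protein Cabp1 had 8.65, 8.43 and 8.28 CPM with vitamin C, against 16.2, 19.4 and 15.2 CPM in control, a log2 change of -0.99 ± 0.07, and its call was lost when the first run was fitted alone. In Gstm1, a glutathione transferase, and Slc44a5, of the choline transporter-like family, neither peak was called and single libraries of the groups overlapped, with 11.5 ± 0.715 CPM with vitamin C and 11.9 ± 0.710 CPM in control for Gstm1 and 10.9 ± 0.0705 CPM with vitamin C and 10.3 ± 0.0793 CPM in control for Slc44a5 (SD, n = 2, libraries 1 and 3 being summed). For Gstm1 the log2 change of -0.07 ± 0.07 was 0.40 and called by all counted reads, and 0.93 and called with the first run fitted alone. For Slc44a5 that of 0.10 ± 0.07 was 0.54 and called by all counted reads, and -0.18 and called with the second run fitted alone.

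Of the genes named here 38 had 2 or more outer promoter peaks, and in 11 of them calls went in both directions, so a value above or below stands for 1 peak and not for the gene. Of these 11, only Adamtsl1 and Cdh13 kept calls in both directions with each run fitted alone. Fads2, Slc44a5 and Tet3 had calls in both directions in those fits only. Numa1 had a second downstream peak with a log2 change of 0.46 ± 0.10, and the upstream peaks of Cabp1 had 0.55 ± 0.14 and 0.73 ± 0.19, all called higher. Besides their falls, Bach2 and Gpd1l had downstream peaks that were higher, with log2 changes of 0.30 ± 0.09 and 0.55 ± 0.21. With the second run fitted alone, the rises of Numa1 (0.18), Bach2 (0.02), Gpd1l (0.25) and the nearer upstream Cabp1 peak (0.26) were not called. The farther Cabp1 peak was 0.44 there and called. Adamtsl1 had 6 peaks, 3 called higher and 3 lower. Fgf5 also had an upstream peak in the first run, with a log2 change of -0.11 ± 0.09 that was not called, but was 0.87 and called when that run was fitted alone.

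The gene lists that follow are set beside the shares of all outer promoter peaks, 43.9% higher and 28.8% lower, and of those in the second run, 57.4% and 10.2%. Over input the shares of all outer promoter peaks are 25.4% higher and 21.1% lower. For RNA they are 25.9% higher and 22.2% lower of the tested genes with an outer promoter peak. Fitting each run alone moved the log2 changes of all its peaks by a median of 0.97 in the first run and -0.28 in the second. The lists were not counted in those fits, so small rises in the second run depend on the scaling. The genes of every list were chosen with earlier results of these data known, so the direction of a list is not independent evidence.

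Among genes that make myelin the outer promoter went both ways. At 12 genes of myelin proteins and of myelin lipid enzymes there were 19 peaks, of which 6 rose (31.6%) and 4 fell (21.1%), and their median log2 change was 0.11, against 0.17 over all outer promoter peaks. The peak of Pmp22, a compact myelin protein (1734 bases upstream), had 4.78, 5.00 and 4.70 CPM with vitamin C, against 3.20, 3.07 and 2.84 CPM in control, a log2 change of 0.69 ± 0.12 (edgeR, adjusted p = 1.40e-06). The peak of Mag, which joins the myelin sheath to the axon (2851 bases upstream), had 3.12, 3.61 and 2.60 CPM with vitamin C, against 2.41, 1.78 and 2.05 CPM in control, a log2 change of 0.61 ± 0.15. Mbp, a major protein of the myelin sheath, was not called and had 3.39, 3.28 and 3.21 CPM with vitamin C, against 3.87, 2.86 and 3.88 CPM in control, a log2 change of -0.10 ± 0.13. The groups overlapped at this peak, which was 0.34 and called higher by all counted reads, and -0.39 and called lower with the second run fitted alone. Fig4, a phosphoinositide phosphatase mutated in an inherited neuropathy, fell, with 2.09, 1.92 and 1.80 CPM with vitamin C, against 4.70, 5.85 and 4.74 CPM in control and a log2 change of -1.39 ± 0.13. The downstream falls of Nfasc, an adhesion molecule of the node (-1.17 ± 0.15), and Cldn19, a tight junction protein of myelin (-0.74 ± 0.09), lay in the first run and lost their calls when that run was fitted alone, where Cldn19 stood at 0.23. An upstream peak of Nfasc fell by 1.42 ± 0.19 on the log2 scale and lost its call in the same way (-0.44). All 4 falls of the list lay in the first run, and all 6 rises in the second. In RNA 3 of the 9 genes tested rose and 2 fell.

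Regulators that drive myelination leaned to rises. Of 13 peaks at 12 genes of the list of promyelinating transcription factors and signals, 11 rose (84.6%) and 0 fell, with a median log2 change of 0.40. Over input 6 rose and 0 fell. In the second run, which held 12 of the 13, 10 rose, a share of 83.3% beside 57.4% of all outer promoter peaks there. The peak of Tead1, the DNA-binding partner of YAP and TAZ (1824 bases upstream), had 14.4, 15.2 and 15.4 CPM with vitamin C, against 8.84, 8.92 and 8.78 CPM in control, a log2 change of 0.78 ± 0.07. The peak of the histone deacetylase Hdac2 (1703 bases downstream) had 4.81, 4.403 and 4.72 CPM with vitamin C, against 2.29, 2.38 and 2.51 CPM in control, a log2 change of 0.96 ± 0.13. The peak of Adgrg6, the receptor that raises cAMP in Schwann cells before myelination (1478 bases upstream), had 9.82, 9.68 and 10.2 CPM with vitamin C, against 7.07, 6.19 and 6.97 CPM in control, a log2 change of 0.56 ± 0.08. Each of the 3, chosen as the called peaks of smallest p in the list, had every vitamin C library above every control library. Groups did not overlap, in either direction, in 76.4% of all outer promoter peaks. Egr2, the master regulator of peripheral myelin, had 5.34, 5.45 and 5.50 CPM with vitamin C, against 4.81, 3.90 and 4.22 CPM in control, a log2 change of 0.35 ± 0.11 (2175 bases upstream). Over input the change of Egr2 was 0.01 ± 0.25 (edgeR, adjusted p = 0.975) and was not called. Zeb2, a repressor of myelination inhibitors, had 3.76, 3.61 and 3.82 CPM with vitamin C, against 2.74, 2.68 and 2.87 CPM in control, a log2 change of 0.43 ± 0.13 (2215 bases upstream). The calls of Egr2 and Zeb2 were lost with DESeq2 and when the second run was fitted alone, and that of Zeb2 also without the summed vitamin C libraries. The list's own direction is not independent evidence, since its genes were chosen with results of these samples known. RNA of its 12 tested genes rose in 5 and fell in 3.

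Genes of the immature and repair Schwann cell had 8 rises (50%) and 4 falls (25%) among 16 peaks (median 0.39), shares near those of all outer promoter peaks, with Fgf5 and Gap43 in the lead. The peak of Artn, a neurotrophic factor (2463 bases downstream), had 7.43, 7.51 and 7.40 CPM with vitamin C, against 4.29, 4.50 and 3.91 CPM in control, a log2 change of 0.83 ± 0.10. RNA of the 11 tested genes rose in 6 and fell in 2. The 7 peaks of immediate early genes, all in the second run, included 6 rises (85.7%, beside 57.4% of all outer promoter peaks there) and 0 falls (median 0.58). Dusp1, a phosphatase of MAP kinases, had 8.68, 8.63 and 8.06 CPM with vitamin C, against 5.30, 4.59 and 6.05 CPM in control and a log2 change of 0.67 ± 0.09. Fos, a subunit of the AP-1 factor, had 6.81, 7.21 and 6.96 CPM with vitamin C, against 4.62, 4.16 and 4.37 CPM in control at its downstream peak and a log2 change of 0.69 ± 0.10. Their RNA went apart, with a log2 change of 0.57 ± 0.08 for Dusp1 and -0.35 ± 0.09 for Fos, both called.

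Lipid synthesis genes leaned to rises as well, and this list too was chosen with earlier results known. Of 21 peaks at 14 genes of sterol and fatty acid synthesis 14 rose (66.7%) and 1 fell (4.76%), with a median of 0.43, and over input 10 rose and 0 fell. In the second run, which held 19 of the 21, 73.7% rose and 0 fell. Besides Sqle, the peak of the desaturase Fads2 (1762 bases downstream) had 4.84, 5.10 and 5.26 CPM with vitamin C, against 2.14, 2.04 and 2.08 CPM in control, a log2 change of 1.29 ± 0.13. RNA of these 14 genes was called higher in 5 and lower in 4, and that of Sqle (-0.04 ± 0.06) and Fads2 (0.09 ± 0.06, log2 changes) was not called.

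**Figure D4:**
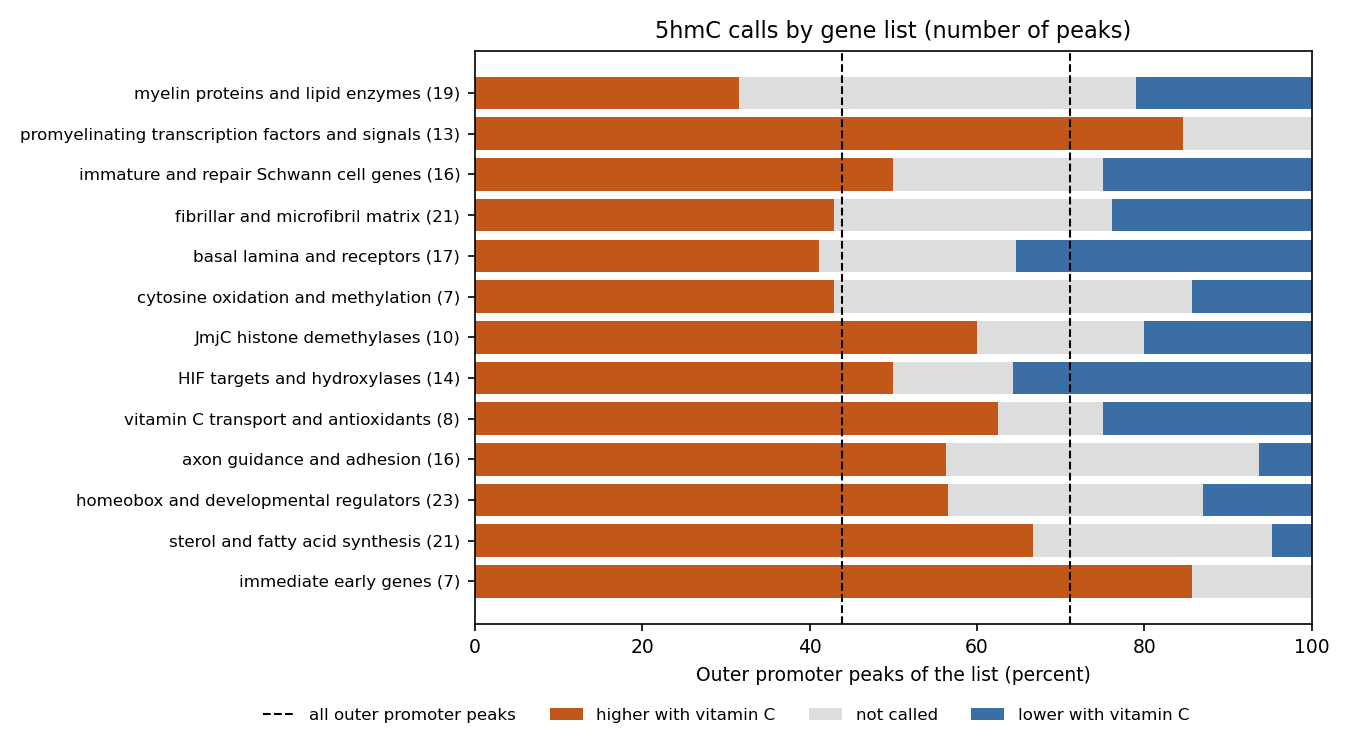
Share of the outer promoter peaks of each gene list, in percent, called higher, not called or called lower with vitamin C, with the number of peaks in brackets; dashed lines mark the shares over all outer promoter peaks, 43.9% higher from the left and 28.8% lower from the right. The promyelinating list has 11 of 13 and the immediate early list 6 of 7 peaks higher, and basal lamina genes have 6 of 17 lower.

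Matrix genes, most of which had more RNA with vitamin C, had shares at the outer promoter near those of all its peaks. Of 21 peaks at 14 genes of the fibrillar and microfibril matrix 9 rose (42.9%) and 5 fell (23.8%), with a median of 0.24, while RNA of those 14 genes rose in 12 and fell in 0. Thbs2, a matricellular thrombospondin, had 7.20, 9.03 and 8.74 CPM with vitamin C, against 4.32, 3.68 and 4.59 CPM in control at its peak 2983 bases upstream, a log2 change of 1.004 ± 0.10. The upstream peaks of Eln (elastin) and Col6a2 (a chain of type VI collagen) had log2 changes of -1.02 ± 0.13 and -0.87 ± 0.11. Their RNA rose by 2.25 ± 0.38 and 1.90 ± 0.27 on the log2 scale, but at low levels. Eln RNA was 0.558 to 0.795 CPM with vitamin C and 0.0834 to 0.208 CPM in control. Col6a2 RNA was 2.95 to 3.65 CPM with vitamin C and 0.458 to 1.19 CPM in control. Both peaks lay in the first run and lost their calls when it was fitted alone, where Col6a2 stood at 0.10. Without the summed vitamin C libraries the value of Eln was -0.67. Of 17 peaks of basal lamina genes and their receptors 7 rose (41.2%) and 6 fell (35.3%), with a median of 0.08. All 6 falls were among the 8 peaks of the first run. Agrn, a heparan sulfate proteoglycan, had 7.34, 7.64 and 7.77 CPM with vitamin C, against 4.81, 4.76 and 4.80 CPM in control at its upstream peak, a log2 change of 0.68 ± 0.09. Lamc1, the laminin γ1 chain, had 6.56, 6.92 and 6.96 CPM with vitamin C, against 12.4, 12.9 and 10.8 CPM in control at the peak 2830 bases downstream, a log2 change of -0.79 ± 0.08 that was 0.18 and not called when the first run was fitted alone. Lamc1 had 4 more peaks, all upstream, with a rise of 0.98 ± 0.17 in the second run, a fall of -0.63 ± 0.09 in the first run that was 0.35 and called higher with that run fitted alone, and 2 without a call. Of these -0.12 ± 0.10, in the first run, was 0.86 and called with that run fitted alone. Col4a4, a type IV collagen chain, had a log2 change of -1.13 ± 0.15 and likewise lost its call there. RNA of the 8 tested genes of this list rose in 6 and fell in 0. Marker sums of fibroblasts, pericytes and perineurial cells were also higher with vitamin C, but single markers were divided. Of 4 tested fibroblast markers, a list that holds the collagen gene Col1a1, 1 was higher and 3 lower. Of 4 perineurial markers 2 were higher and 2 lower, and of 4 pericyte and smooth muscle markers 3 were higher and 0 lower. The part of other cell types in these RNA values was not tested.

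Of 7 peaks of cytosine oxidation and methylation genes 3 rose and 1 fell (median 0.17). The rises were those of Tet3, a TET dioxygenase, and of Idh1 and Idh2, which make 2-oxoglutarate, and the fall was that of Gadd45a. Tet3 had 12.2, 13.2 and 12.5 CPM with vitamin C, against 8.08, 8.62 and 9.27 CPM in control at the peak 1725 bases downstream, a log2 change of 0.55 ± 0.07, and 5.37, 4.53 and 4.72 CPM with vitamin C, against 5.49, 4.24 and 4.89 CPM in control at the peak 2119 bases upstream, a log2 change of 0.00 ± 0.11. Its downstream peak was called and its upstream peak was not, with overlapping groups. The upstream peak was 0.44 and called by all counted reads, and -0.28 and called with the second run fitted alone. Tet2 had 1.92, 1.67 and 2.12 CPM with vitamin C, against 2.07, 1.60 and 1.99 CPM in control, a log2 change of 0.01 ± 0.17 that was 0.43 and called by all counted reads. Idh1, an isocitrate dehydrogenase, had 2.67, 2.39 and 2.04 CPM with vitamin C, against 1.39, 0.996 and 0.979 CPM in control upstream, a log2 change of 1.09 ± 0.18. Gadd45a, a stress protein linked to demethylation, had 3.25, 3.11 and 2.68 CPM with vitamin C, against 4.32, 4.55 and 4.37 CPM in control, a log2 change of -0.54 ± 0.12. That value lost its call when scaled by all counted reads and was 0.44 and called higher when the first run was fitted alone. RNA of these 6 genes rose in 2 and fell in 3.

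Of 10 peaks of JmjC histone demethylases 6 rose and 2 fell (median 0.43). All 6 rises were among the 8 peaks of the second run (75%, beside 57.4% of all outer promoter peaks there) and both falls in the first. Kdm4a had 2.42, 2.89 and 2.78 CPM with vitamin C, against 1.05, 1.08 and 1.498 CPM in control, a log2 change of 1.15 ± 0.17, Kdm2a had 5.56, 5.82 and 6.52 CPM with vitamin C, against 3.27, 3.81 and 2.42 CPM in control, a log2 change of 0.95 ± 0.12, and Kdm4b had 2.95, 2.21 and 2.90 CPM with vitamin C, against 6.39, 6.84 and 5.23 CPM in control, a log2 change of -1.19 ± 0.12. The fall of Kdm4b lost its call when the first run was fitted alone, and no RNA of the 8 tested genes was called. Of 14 peaks of HIF targets and hydroxylases 7 rose (50%) and 5 fell (35.7%), with a median of 0.19, while their RNA rose in 2 of 10 genes and fell in 7. P4ha2, a collagen prolyl hydroxylase, had 10.2, 10.3 and 10.1 CPM with vitamin C, against 5.49, 5.54 and 5.75 CPM in control, a log2 change of 0.88 ± 0.08, at its downstream peak. Its upstream peak, in the first run, was lower by the same test at -0.61 ± 0.13, but was 0.36 and called higher with that run fitted alone. Egln1, the main HIF prolyl hydroxylase, had 6.17, 6.59 and 6.16 CPM with vitamin C, against 3.12, 2.99 and 3.09 CPM in control, a log2 change of 1.06 ± 0.11. Vegfa, the vascular growth factor, had 7.07, 7.11 and 6.69 CPM with vitamin C, against 12.3, 11.995 and 11.7 CPM in control at its upstream peak, a log2 change of -0.77 ± 0.08 that was 0.22 and not called when the first run was fitted alone; its downstream peak was lower as well, at -0.23 ± 0.08, and 0.21 by all counted reads. Vegfa RNA rose by 1.05 ± 0.08 on the log2 scale.

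The remaining lists had few peaks. Of 8 peaks of vitamin C transport and antioxidant genes 5 rose (62.5%) and 2 fell (25%), with a median of 0.53. Gpx1 and Gpx4, glutathione peroxidases, had 8.07, 8.96 and 8.28 CPM with vitamin C, against 4.78, 5.33 and 4.59 CPM in control for Gpx1, a log2 change of 0.81 ± 0.09, and 12.3, 13.6 and 12.7 CPM with vitamin C, against 9.02, 8.18 and 8.38 CPM in control for Gpx4, a log2 change of 0.62 ± 0.07. Their RNA fell, with log2 changes of -0.96 ± 0.08 for Gpx1 and -0.46 ± 0.07 for Gpx4. Nqo1, a quinone reductase, had a log2 change of -1.05 ± 0.12, whose call was lost when the first run was fitted alone. Of 16 peaks of axon guidance and adhesion genes 9 rose (56.2%) and 1 fell (6.25%), with a median of 0.22. The semaphorin receptor Plxna1 had 3.00, 3.33 and 2.87 CPM with vitamin C, against 1.39, 1.56 and 1.44 CPM in control, a log2 change of 1.09 ± 0.16, and the semaphorin Sema4d had 8.82, 7.31 and 8.03 CPM with vitamin C, against 4.29, 4.42 and 4.46 CPM in control, a log2 change of 0.87 ± 0.10. The only fall, in Sema3f (-1.01 ± 0.11), lost its call when the first run was fitted alone. Of 23 peaks of homeobox and developmental regulators 13 rose (56.5%) and 3 fell (13.0%), with a median of 0.28. Meis1, a homeobox cofactor, had 2.86, 3.16 and 3.09 CPM with vitamin C, against 1.62, 0.909 and 1.59 CPM in control, a log2 change of 1.14 ± 0.17 that was 1.74 without the summed control libraries. Tfap2a, a factor of early neural crest and Schwann precursors, had 14.1, 14.7 and 13.4 CPM with vitamin C, against 9.29, 9.70 and 9.24 CPM in control, a log2 change of 0.60 ± 0.07. Pax2, a kidney and eye regulator, had 0.974, 0.821 and 0.730 CPM with vitamin C, against 2.18, 2.77 and 2.23 CPM in control, a log2 change of -1.5001 ± 0.19. RNA of the tested genes was higher in 1 and lower in 3 of 6 antioxidant genes, in 7 and 1 of 11 guidance genes, and in 3 and 3 of 13 developmental regulators.

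Most genes with an outer promoter peak had RNA above the filter on low counts. Of these 6826 genes 5064 (74.2%) passed the RNA filter, against 39.3% of 32883 genes in the RNA table, a table that was not limited to protein-coding genes as the peaks were. The share was 89.5% for genes with a risen downstream peak and 81.5% with a risen upstream peak, and 58.8% and 62.3% for genes with a fallen upstream or downstream peak. Within the second run 85.9% of genes with a risen peak and 74.3% with a fallen one passed. RNA was called in 48.2% of the genes tested (1314 higher, 1125 lower), against 40.1% of all genes tested, of which 19.1% were higher and 21.0% lower. Over both runs, genes with a risen peak had RNA higher in 28.5% and lower in 20.7% of cases, and genes with a fallen peak 22.8% and 23.8%. In the second run the shares were 28.4% and 20.7% with a risen peak, and 26.1% and 23.1% with a fallen one. In the first run they were 32.5% and 18.2% with a risen peak (77 genes tested), and 21.6% and 23.9% with a fallen one. The lower share of RNA rises at fallen peaks was thus seen mostly in the first run.

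Counted by peak, all 4 pairs of directions were common. Risen peaks stood at genes with risen RNA in 1043 cases and with fallen RNA in 706. Fallen peaks stood at genes with risen RNA in 369 cases and with fallen RNA in 377. Counted by gene, these 4 pairs held 822, 598, 339 and 353 genes, and a gene with peaks in both directions entered more than once. In the second run they held 808, 590, 133 and 118 genes, and in the first 25, 14, 223 and 246. The direction of 5hmC at the outer promoter therefore did not give the direction of RNA for a single gene.

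Both rose at Cd109, a co-receptor that restrains TGF-β signalling, whose peak 1488 bases downstream had 10.2, 9.68 and 10.2 CPM with vitamin C, against 4.32, 4.55 and 4.31 CPM in control, a log2 change of 1.20 ± 0.09. Its RNA was 274 ± 7.79 CPM with vitamin C and 61.2 ± 7.49 CPM in control (SD, n = 3), a log2 change of 2.15 ± 0.08 (edgeR, adjusted p = 1.67e-06). Both also rose at Gpx3, a secreted glutathione peroxidase (1.01 ± 0.11 in 5hmC and 1.66 ± 0.07 in RNA; its upstream peaks had 0.54 ± 0.13, called higher, and -0.70 ± 0.15, called lower), Col12a1, a collagen that decorates fibrils (0.77 ± 0.08 and 1.57 ± 0.08), and the AP-1 subunit Fosl2 (1.02 ± 0.14 and 1.31 ± 0.06, log2 changes). With each run fitted alone the upstream peaks of Gpx3 were 0.25 and 0.28, and neither was called. 5hmC rose and RNA fell at Spon1, the matrix protein F-spondin, whose peak had 7.90, 8.56 and 7.72 CPM with vitamin C, against 5.11, 5.37 and 5.14 CPM in control, a log2 change of 0.65 ± 0.09. Its RNA was 8.94 ± 0.408 CPM with vitamin C and 65.8 ± 5.39 CPM in control (SD, n = 3), a log2 change of -2.89 ± 0.08. The same pair of directions held for the co-chaperone Bag3 (0.92 ± 0.10 in 5hmC and -1.17 ± 0.07 in RNA), the Toll-like receptor partner Tril (0.93 ± 0.10 and -1.51 ± 0.07) and the aggrecanase Adamts4 (0.83 ± 0.10 and -0.94 ± 0.06, log2 changes).

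5hmC fell and RNA rose at L1cam, an adhesion molecule of non-myelinating Schwann cells on the X chromosome, with log2 changes of -1.28 ± 0.16 in 5hmC and 1.32 ± 0.06 in RNA. The small heat shock protein Hspb8 (-0.98 ± 0.12 and 1.66 ± 0.09) and the sodium channel relative Scn7a (-1.41 ± 0.19 and 1.49 ± 0.08) followed the same pattern. Loxl2, a lysyl oxidase that crosslinks collagen, had a log2 change of -0.45 ± 0.06 in 5hmC and 1.21 ± 0.06 in RNA, but its peak stood at 0.54 and was called higher when the first run was fitted alone. Both fell at Gal, the neuropeptide galanin, whose peak 1402 bases downstream had 4.73, 4.95 and 4.50 CPM with vitamin C, against 10.1, 9.87 and 9.94 CPM in control, a log2 change of -1.06 ± 0.09 (edgeR, adjusted p = 3.58e-14). Its RNA was 0.393 ± 0.0664 CPM with vitamin C and 5.83 ± 0.884 CPM in control (SD, n = 3), a log2 change of -3.89 ± 0.20. Both also fell at the adaptor Sla (-1.05 ± 0.13 in 5hmC and -2.56 ± 0.06 in RNA), the membrane glycoprotein Gpnmb (-1.11 ± 0.12 and -1.75 ± 0.07) and Wdr6, a protein of tRNA modification (-1.001 ± 0.10 and -1.33 ± 0.07, log2 changes). Of these 8 fallen peaks only that of Gal lay in the second run. Those of L1cam, Hspb8, Scn7a, Sla, Gpnmb and Wdr6 lost their calls when the first run was fitted alone. Hspb8 and Gpnmb each also had a downstream peak in the second run that was higher, with log2 changes of 0.40 ± 0.16 and 0.45 ± 0.18. With the second run fitted alone these peaks were 0.12 and 0.17, and neither was called.

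**Figure D5:**
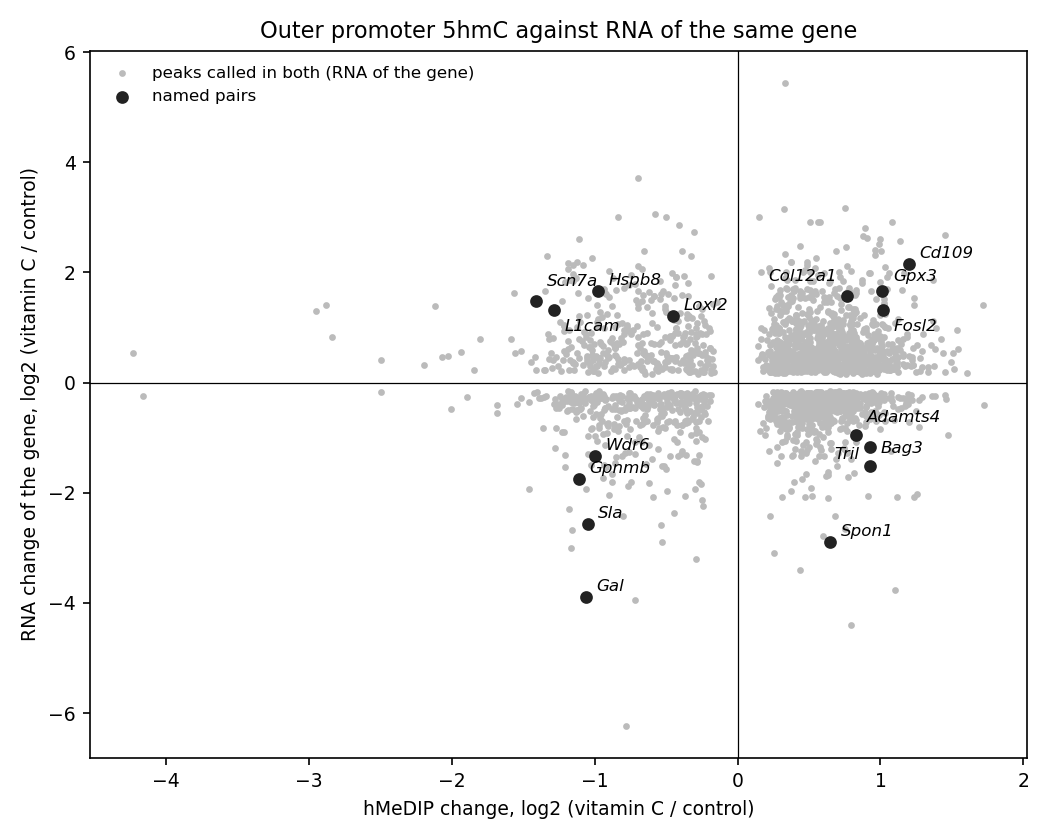
Log2 change of RNA (vitamin C over control) against log2 change of 5hmC at the outer promoter peak of the same gene, for peaks and genes called in both, with 16 named peaks in black. The grey points fill all 4 sections of the plot, with 1043 peaks where both rose and 377 where both fell.

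Several levels of RNA in this group of genes changed their call with the libraries used. For genes named above, the RNA call of Tead1 (log2 change 0.90 ± 0.26) was lost with DESeq2 and without any control library in turn. That of Gap43 (-0.18 ± 0.06) was lost with DESeq2, with other size factors, without the filter and without 4 of the 6 libraries in turn, that of Tet3 (0.45 ± 0.15) without any control library in turn, and that of Egln1 (0.25 ± 0.06) without control replicate 1 or 2. The calls of Bach2 (1.31 ± 0.32) and Pigf (0.29 ± 0.07) were lost without control replicate 2, and that of Sema4d (0.24 ± 0.08) with library size alone, with the replicate number as a block and without vitamin C replicate 2 or control replicate 1 or 2.

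The length limit that chose the peaks runs through a continuous range of lengths. Just inside it Trim45 (2990 bases) had 19.3, 19.9 and 19.7 CPM with vitamin C, against 16.7, 15.8 and 16.7 CPM in control, Ptger1 (2993 bases) 13.9, 13.5 and 14.1 CPM with vitamin C, against 10.8, 11.3 and 10.1 CPM in control and Cdk14 (2993 bases) 25.6, 26.8 and 25.5 CPM with vitamin C, against 31.5, 30.9 and 31.3 CPM in control. Just outside it Gfap (3005 bases) had 18.9, 18.9 and 18.2 CPM with vitamin C, against 11.5, 12.2 and 12.2 CPM in control, Tgfb3 (3011 bases) 14.2, 13.9 and 13.4 CPM with vitamin C, against 9.93, 10.3 and 8.81 CPM in control and Timp2 (3015 bases) 17.4, 19.0 and 17.2 CPM with vitamin C, against 14.2, 13.1 and 13.9 CPM in control. Vitamin C libraries were above control libraries in all of these but Cdk14.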

How the data were processed

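Counts of reads deposited by the authors are whole numbers, given per listed peak for 6 hMeDIP and 6 input libraries and per gene for 6 RNA libraries, 18 libraries in all, beside a list of peaks with positions, classes and genes. Per the submitters' processing notes CASAVA 1.4, Trim Galore, STAR, BWA and HTSeq were used, with no roles named. The aligner settings, peak caller, rule that merged peaks, genome build and strand setting are named in no source used here, so overlapping or near-identical genes cannot be told apart in RNA. Of all counted reads 30.8% to 43.9% of hMeDIP and 8.43% to 8.65% of input reads lay in peaks and 46.1% to 57.7% of RNA reads in genes; the rest stayed out of library sizes and tests.

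Counts per assay were tested over the whole table with edgeR 4.0.16 in R 4.3.3 (TMM factors, filterByExpr, quasi-likelihood F test, Benjamini-Hochberg adjustment at 0.05) with treatment as the only term, and a fit over hMeDIP and input libraries tested enrichment. Levels are CPM of reads in peaks or genes and changes are log2 fold changes of vitamin C over control, with SE. The design had asked for libraries to be summed where the chi-square per degree of freedom was at most 1.1; that figure was met by all vitamin C hMeDIP pairs, so the test's p decided, which put replicates 1 and 3 together in both groups, while input libraries, none of whose pairs differed, were kept as 3 against 3. Single values per library were compared by exact two-sided permutation tests. The fits were tested on simulated counts with 200 changed features, far fewer than were called here. For hMeDIP 16 of 100 changes of 0.5 on the log2 scale and 93 of 100 of 1.0 were recovered, with 4 false calls. For RNA 82 and 98 of 100 were recovered, with 8 false calls. Other tools were DESeq2 1.42.0, limma 3.58.1, Python 3.11.15 with pandas 2.3.3, numpy 2.4.6 and matplotlib 3.10.9, and data.table (1.17.8). Without molecular identifiers reads are not independent molecules.

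A peak's side is the sign of its listed distance, which equals the midpoint minus the listed start along the strand within 0.5 bases at all 9202 peaks. The 13 gene lists, the marker lists and the peaks studied were chosen with earlier results of these data known. Named peaks are the 8 of smallest p in each direction without overlap, up to 3 called per list, the 5 of highest CPM per kb, those of a fixed set of myelin, TET and related genes, 4 genes per pair of 5hmC and RNA directions, those beside the length limit, and, chosen after their values were seen, those that cover the whole window around the start and further peaks of named genes. Some are left out for length. Symbols of 4528 of the 6826 genes (66.3%) were found in RefSeq's GRCr8 table, too few for a check of CpG content over the set. Same-numbered libraries did not deviate together in hMeDIP (correlation -0.201 over 2 samples a group) or input, and in RNA the correlations were 0.275, 0.150 and 0.0562, so the numbers were not used as pairs. Alternatives were other scaling factors, DESeq2, no filter, unsummed libraries, a block, leaving out libraries and other rules of length and biotype; fits of each list run and of crossed pairs were added after the data were seen.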

Additional observations from a re-analysis of the deposited data

How the results depend on the processing

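Of the total counts of calls, higher and lower together, 1 moved by over 1.5 times: enrichment over input ranged from 2676 to 4125 as each sample was left out, against 4278. Calls among outer promoter peaks were 6694 in all, 6399 with the replicate number as a block, 6860 with crossed pairs, 4611 with DESeq2 and 4785 with each run of the list fitted alone. As a block the number gave 2569 RNA calls, against 2439, and 0 input calls. The log2 change of the outer promoter share of hMeDIP reads, 0.10 in peaks, was 0.50 of all counted reads, 0.11 as a ratio to input, 0.0481 in the first run and 0.0701 in the second. The upstream to downstream difference of -0.18 was -0.10 in the first run and -0.12 in the second. Of 90 named peaks 56, and of 53 RNA calls 45, kept direction and call under every alternative. Signs turned with each run fitted alone for Cldn19 (0.23), Col6a2 (0.10), Lamc1 (0.18) and Vegfa (0.22), and with a call also for Gadd45a (0.44), Loxl2 (0.54), Gstm1 (0.93), Slc44a5 (-0.18), Cnfn (-0.22) and upstream Tet3 (-0.28). By all counted reads they turned for Cdk14 (0.21) and Col8a2 (0.28), and with a call for Gstm1 (0.40) and Mbp (0.34). Signs of further peaks of named genes turned as well. With each run fitted alone these included upstream peaks of P4ha2 (0.36), Lamc1 (0.35 and 0.86) and Fgf5 (0.87) with a call, and of Gpx3 (0.28) without one. By all counted reads they included the downstream peak of Vegfa (0.21). The sign of a peak with no call on either side is not counted, and the cause was not tested. Summing libraries limits hMeDIP to 2 samples a group, so a single value cannot pass an exact test at 0.05. No source used here says what the runs of the list stand for.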
